A study of Homo sapiens with 4 samples.

Results

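The 10 genes described here encode GDF15 and 9 other secreted ligands of the TGF-beta family, namely INHBA, INHBB, INHBE, TGFB1, TGFB2, TGFB3, BMP2, BMP4 and GDF11. They were picked by name among 59050 gene symbols with deposited counts, and all 10 passed the filter on low counts that left 17479 genes. The libraries were made from cultures labelled HepG2, an established line from a human liver tumor. Untreated cells (0 h) gave 2 libraries and cells kept for 24 h with doxorubicin, a DNA-damaging drug, at 1 ug/ml gave the other 2. The labels call the treated libraries p53 and the untreated ones nop53, while a treatment tag of the treated samples reads p53-miRNA. The response of GDF15 and of the other ligands to doxorubicin was known when the genes were chosen, so their differences between the groups are given as a description, without a test.

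Ligands of this family are made as precursors, cut by proprotein convertases such as furin, and act as dimers on pairs of type I and type II receptor kinases, which phosphorylate SMAD proteins that then enter the nucleus. TGFB1, TGFB2, TGFB3, the activins (dimers of the INHBA, INHBB or INHBE products) and GDF11 signal mainly through SMAD2 and SMAD3, and BMP2 and BMP4 through SMAD1, SMAD5 and SMAD9. GDF15 is a distant member of the family that acts through GFRAL and the co-receptor RET in the hindbrain. It is known as a gene that p53 and the stress factor ATF4 can induce, and activins are known in the liver as regulators of growth.

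Each library held between 27572740 and 36272180 counts. Levels are given as CPM, the count of a gene per 1000000 counts of its library. Untreated replicate 2 stood apart from the other libraries. The Pearson correlation of log2 CPM across genes, which are not independent replicates, was 0.878 between the untreated libraries and 0.986 between the doxorubicin libraries, and in 81.6% of the genes tested untreated replicate 2 was higher or lower than all 3 others. Fold changes of the ligands are therefore given with and without this library. In the quasi-likelihood test of edgeR, 0 of 17479 genes (0.00%) were called, meaning an adjusted p-value under 0.05 and a change of 1 or more on the log2 scale, and at an unadjusted p-value under 0.05 there were 768. The lowest Benjamini-Hochberg adjusted p-value of that quasi-likelihood test was 0.773. DESeq2 called 90 genes (0.515%), the exact test of edgeR 38 (0.217%) and the fit with the replicate number as a block 20 (0.114%).

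The cells were checked by marker lists. Of 12 genes typical of hepatocytes, 6 were under 1 CPM in every library, among them ALB with at most 3 counts in a library. APOH and TTR were at 0 in 3 libraries. The summed CPM of the list was 1.27 and 4.36 in untreated cells against 16.6 and 20.0 in treated cells, where FGG, a fibrinogen chain, had 335 and 386 counts against 6 and 3 in untreated cells. The hepatocyte markers thus did not bear out the label, and HepG2 is used below as the name on the label. Sums of the markers of other cell types also differed by group, although the genes of a list did not always move alike. The summed CPM of simple epithelium markers, nearly all from KRT8 and KRT18, was 5899 and 4752 in untreated cells and lower, 3527 and 3025, in treated cells. The other 3 of these 5 genes were under 1 CPM in every library. KRT8 was below both untreated libraries in treated cells, while KRT18 overlapped, with 1793 and 783 CPM against 1086 and 937. The summed CPM of fibroblast markers was 226 and 169 against 283 and 284. In this list of 6 genes the treated libraries were above both untreated ones in 2 and below both in 2, against 30.3% and 11.5% of all genes tested. LUM had 65.4 and 49.3 CPM against 135 and 163, and DCN (decorin) had 17 and 18 counts against 264 and 189. COL3A1 had 70.0 and 69.1 CPM against 55.8 and 46.0, and COL1A2, which did not pass the filter, had 2 and 2 counts against 0 and 0. COL1A1 and PDGFRB overlapped between the groups. Squamous markers, mostly SFN, summed to 255 and 727 CPM against 181 and 158, while KRT14 of that list was higher in treated cells (2.81 and 2.39 against 7.43 and 5.15). The other 4 of the 6 squamous genes were under 1 CPM in every library. Endothelial markers summed to 9.79 and 5.13 against 2.97 and 2.43. Of these, CDH5 had 8.52 and 3.29 against 1.46 and 0.94, and the other genes overlapped between the groups. Leukocyte markers summed to 0.248 and 0.589 against 0.0583 and 0.0725. All 5 leukocyte genes were under 1 CPM in every library, so these sums rest on few reads. The part of the cell make-up in the results below was not tested, and in such bulk samples fewer cells of a type and less RNA per cell cannot be told apart.

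The promoters of GDF15 and INHBA are shown because these 2 ligands had the largest fold changes relative to their standard errors. The letters are the 250 bases before the RefSeq start site (GRCh38.p14), read on the strand of the gene. For GDF15 they cover chr19:18385908-18386157 (plus strand) and for INHBA chr7:41703091-41703340 (minus strand). Both windows lie inside the GENCODE intervals of the genes given below, and sequence before the outer ends of those intervals was not searched. Capitals mark TATAAA and GGGCGG on either strand.
GDF15: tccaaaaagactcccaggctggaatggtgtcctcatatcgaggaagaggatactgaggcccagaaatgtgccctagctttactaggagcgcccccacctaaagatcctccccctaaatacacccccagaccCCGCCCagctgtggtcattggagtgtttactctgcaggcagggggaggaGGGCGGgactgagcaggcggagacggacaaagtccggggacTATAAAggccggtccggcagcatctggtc
INHBA: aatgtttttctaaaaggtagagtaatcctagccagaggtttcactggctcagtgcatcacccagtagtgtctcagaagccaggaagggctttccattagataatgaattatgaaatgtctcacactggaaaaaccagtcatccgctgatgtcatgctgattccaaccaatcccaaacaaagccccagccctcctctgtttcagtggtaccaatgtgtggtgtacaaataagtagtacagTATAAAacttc

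TATAAA began 29 bases before the start site in GDF15 and 11 bases before it in INHBA, and 10.7% of the 35116 promoters of the table held it. GGGCGG, the core of the GC box, was found 2 times in GDF15 and not in INHBA, against 42.6% of all promoters with a match. The p53 half-site of 10 letters (5.57% of promoters), the ATF4-type element TGATGNAA (3.14%), the CRE TGACGTCA (1.65%) and the AP-1 site TGANTCA (6.57%) were searched on both strands, and none of the 4 was found in these windows of GDF15 and INHBA. Of the 10 ligands, 8 had a promoter in the table, and a p53 half-site was found in 1 window of TGFB3, between 52 and 43 bases before the start site. These matches describe the letters alone.

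**Figure D1:**
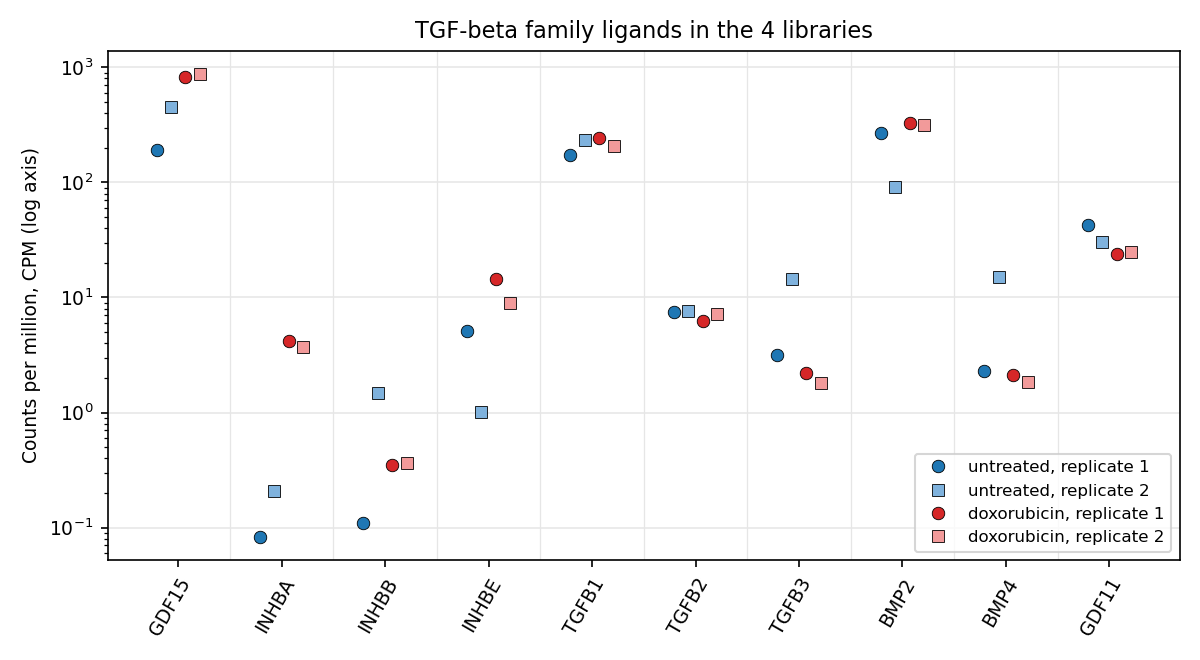
CPM of the 10 ligands (log axis) in each of the 4 libraries, 1 point per library, blue for untreated and red for doxorubicin. The doxorubicin points of GDF15, INHBA, INHBE and BMP2 lie above both untreated points, and those of TGFB2, TGFB3, BMP4 and GDF11 below both.

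GDF15 (chromosome 19, 18374731 to 18389176, GRCh38, plus strand) had 6937 and 12940 counts in the untreated libraries against 28532 and 24177 in the doxorubicin libraries (replicates 1 and 2 in this order, here and below). Its CPM was 191 and 448 in untreated cells against 832 and 877 in treated cells. Both treated libraries were higher than both untreated ones, and the treated libraries were close to each other while the untreated ones were not. Untreated replicate 2 was 2.34 times untreated replicate 1, and the treated libraries were 1.86 and 1.96 times untreated replicate 2, so the gap within the untreated group was wider than the gap from it to the treated group. Over untreated replicate 1 the treated libraries were 4.35 and 4.58 times higher. The log2 fold change of doxorubicin over untreated was 1.26 (standard error, SE, 0.45), 2.02 without untreated replicate 2 and 0.75 without untreated replicate 1. MIR3189 lies within GDF15 on the same strand.

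INHBA (chromosome 7, 41667168 to 41705834, minus strand) encodes the beta A subunit of activin A. It had 3 and 6 counts in the untreated libraries against 144 and 103 in the doxorubicin libraries, which are 0.083, 0.21, 4.20 and 3.74 CPM. The gene was close to silent in both untreated libraries and passed the filter through its treated libraries alone. Its pooled CPM was 28.9 times higher in treated cells (95% interval 15.0 to 63.9, exact for the counts and covering counting error only). The ratio was 19.2 (8.70 to 52.8) over untreated replicate 2 alone and 48.3 (16.3 to 235.6) over untreated replicate 1 alone. The fitted log2 fold change was 4.65 (SE 0.75), with 4.05 when untreated replicate 1 was left out and 5.39 when untreated replicate 2 was. This was the largest change of the 10 ligands in the fit with all libraries, and it rests on few untreated reads, since a prior count of 2 lowered it to 4.19. INHBA-AS1 overlaps it on the other strand.

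INHBE (chromosome 12, 57452323 to 57459280, plus strand) encodes the beta E subunit, an activin chain made mainly by hepatocytes. It had 186 and 29 counts in untreated cells against 501 and 245 in treated cells, which are 5.13, 1.00, 14.6 and 8.89 CPM. Both treated libraries were higher than both untreated ones, although untreated replicate 1 was 5.11 times untreated replicate 2 and doxorubicin replicate 1 was 1.64 times doxorubicin replicate 2. The log2 fold change was 1.76 (SE 0.81), 1.07 without untreated replicate 2 and 3.37 without untreated replicate 1. INHBB (chromosome 2, 120346136 to 120351803), which encodes the beta B subunit, had 4 and 43 counts in untreated cells against 12 and 10 in treated cells. Its untreated values of 0.11 and 1.49 CPM enclosed the treated values of 0.35 and 0.36. Its log2 fold change of -1.23 (SE 1.16) turned to 1.52 when untreated replicate 2 was left out, and untreated replicate 1 then had only 4 counts. The 3 activin chains thus differed in pattern, with INHBA and INHBE higher in treated cells and INHBB changing direction with untreated replicate 2.

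TGFB1 (chromosome 19, 41301587 to 41353922, minus strand), the most widely made of the TGF-beta isoforms, had 172 and 233 CPM in untreated cells against 244 and 207 in treated cells. The groups overlapped and the log2 fold change was 0.00 (SE 0.32), 0.25 without untreated replicate 2. Several genes overlap TGFB1 on the other strand, HNRNPUL1 and CCDC97 among them. TGFB2 (chromosome 1, 218345336 to 218444619) had 7.50 and 7.65 CPM in untreated cells against 6.21 and 7.18 in treated cells. Both treated libraries were below both untreated ones, by a log2 fold change of -0.34 (SE 0.45), within its error, and of -0.31 without untreated replicate 2. It was the ligand on which the untreated libraries were closest, with a ratio of 1.02.

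TGFB3 (chromosome 14, 75958097 to 75983011, minus strand) had 3.14 and 14.5 CPM in untreated cells against 2.19 and 1.81 in treated cells. BMP4 (chromosome 14, 53949736 to 53958761), a ligand known from mesoderm and liver development, had 2.29 and 15.1 in untreated cells against 2.13 and 1.85 in treated cells. Both were highest in untreated replicate 2, at 4.61 and 6.60 times untreated replicate 1, and in both the treated libraries were below untreated replicate 1 as well. The log2 fold change of TGFB3 was -2.27 (SE 0.86), and -0.78 without untreated replicate 2. That of BMP4 was -2.26 (SE 0.97), and -0.33 without it. Leaving out that 1 library thus made both differences smaller. BMP2 (chromosome 20, 6767686 to 6780246), which induces bone and, in liver, hepcidin, moved the other way in that library. It had 268 and 91.2 CPM in untreated cells against 326 and 312 in treated cells. Its log2 fold change was 0.67 (SE 0.54), 0.11 without untreated replicate 2 and 1.62 without untreated replicate 1.

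GDF11 (chromosome 12, 55743122 to 55757264), a close relative of myostatin, had 42.6 and 30.3 CPM in untreated cells against 23.9 and 25.0 in treated cells. Both treated libraries were lower than both untreated ones, and untreated replicate 2 lay inside the range of the others. The log2 fold change was -0.73 (SE 0.38), -0.94 without untreated replicate 2 and -0.49 without untreated replicate 1, so the direction was the same whichever untreated library was used.

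**Figure D2:**
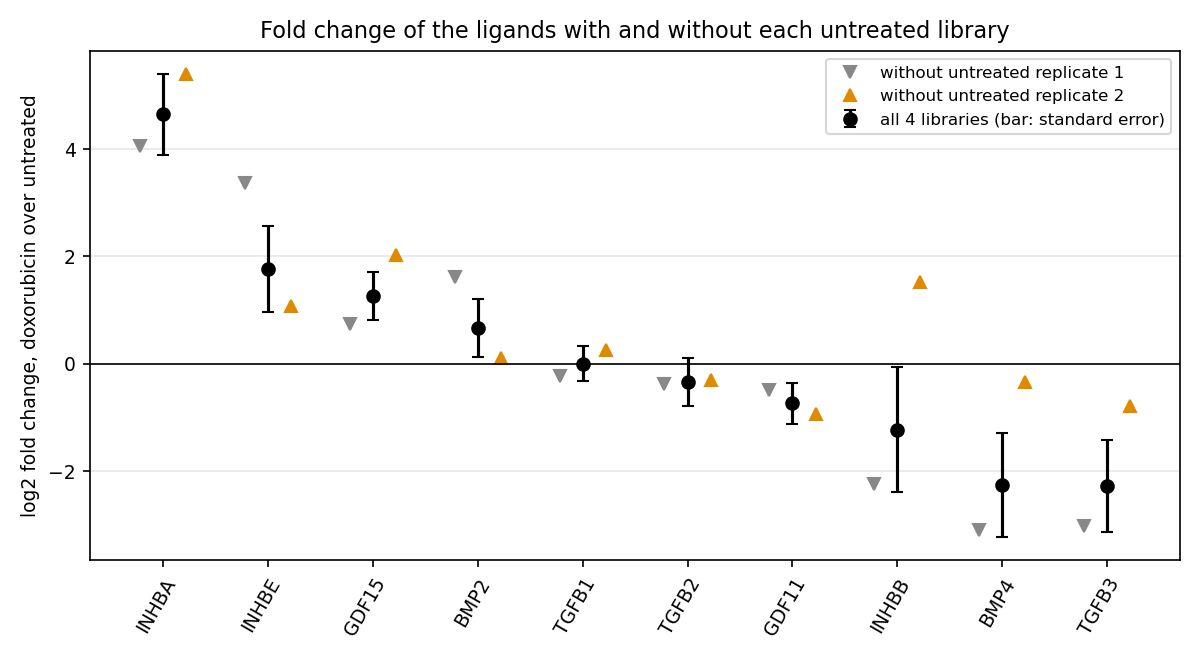
Log2 fold change of doxorubicin over untreated for the 10 ligands. Black points are the fit of all 4 libraries with bars of 1 standard error, grey triangles leave out untreated replicate 1 and orange triangles untreated replicate 2. INHBA lies above 4 in all 3 fits, GDF15 goes from 0.75 to 2.02, and INHBB and TGFB1 change sign.

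In all, the treated libraries were above both untreated libraries in 4 of the 10 ligands, against 30.3% of all genes tested, and below both in another 4, against 11.5%. These counts are read as a description, since the choice of genes used this contrast. With TMM-scaled values the counts for the ligands were also 4 and 4, and those for all genes 21.3% and 17.9%, while with RLE factors the groups overlapped for BMP2 and the shares of all genes were 19.1% and 20.2%. Scaling by the library size alone raised the median log2 fold change of all genes from 0.01 to 0.17. Untreated replicate 2 was the highest library in 4 ligands (INHBB, TGFB2, TGFB3, BMP4) and the lowest in 2 (INHBE, BMP2), against 36.6% and 45.0% of all genes. Without it, the treated libraries were both above untreated replicate 1 in 6 ligands and both below it in 4, against 53.1% and 24.7% of all genes.

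Compared per length, as CPM per kb of merged exon, GDF15 was the most abundant of the 10 ligands in every library, at 96.2 and 225 in untreated cells against 418 and 441 in treated cells. BMP2 came next in 3 libraries, at 75.7 in untreated replicate 1 and 91.8 and 88.1 in treated cells, and was behind TGFB1 in untreated replicate 2 with 25.7. TGFB1 was between 60.1 and 85.2. In untreated replicate 1, GDF15 was near BMP2 and TGFB1, and in treated cells it was far above both. BMP2 and TGFB1 did not separate from each other in untreated cells, where their order changed between the replicates. The other 7 ligands were at most 7.13, with GDF11 between 2.72 and 4.84, INHBE between 0.408 and 5.94, and BMP4 between 0.873 and 7.13. TGFB2 was steady, between 1.04 and 1.29. INHBA went from the last place in both untreated libraries, at 0.013 and 0.032, to the eighth in both treated libraries, at 0.638 and 0.568, ahead of TGFB3 and INHBB.

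**Figure D3:**
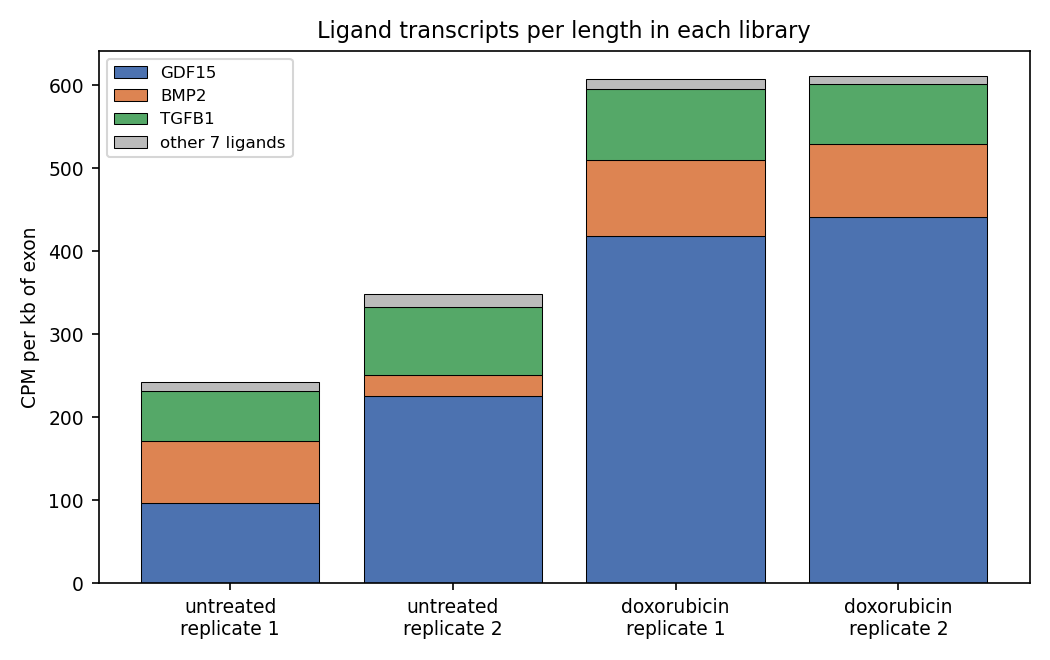
CPM per kb of exon of the ligands, stacked for each library, with GDF15 in blue, BMP2 in orange, TGFB1 in green and the other 7 ligands in grey. GDF15 takes 39.7% and 64.6% of the stack in the untreated libraries and 68.9% and 72.2% in the doxorubicin libraries.

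A share within 1 library needs no scaling between libraries. Of all counts on the 10 ligands, GDF15 took 27.6% in untreated replicate 1 (95% Wilson interval 27.1 to 28.2, counting error only) and 53.2% in untreated replicate 2 (52.5 to 53.8). It took 57.2% (56.7 to 57.6) and 60.7% (60.2 to 61.1) in doxorubicin replicates 1 and 2. Both treated libraries were higher, and untreated replicate 2 was much closer to them than to untreated replicate 1. BMP2 took 38.7% and 10.8% of the counts in untreated cells against 22.4% and 21.6% in treated cells, lowest in untreated replicate 2. TGFB1 took 24.9% and 27.7% in untreated cells against 16.8% and 14.4% in treated cells, where its share was lower in both libraries. A share also depends on the other ligands, and the CPM of TGFB1 overlapped between the groups (172 and 233 against 244 and 207). The summed CPM of the 10 ligands was 693 and 843 in untreated cells against 1455 and 1445 in treated cells.

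The other genes of the pathway were examined as 7 lists with 95 genes, of which 73 passed the filter. In the edgeR quasi-likelihood test 0 of the 73 were called, as were 0 by DESeq2, by the exact test and with the replicate block, and 6 had an unadjusted p-value under 0.05 (against 4.39% of all genes), among them GDF9, BMP7, SMAD9 and LTBP1. BMP7 passed the filter through its treated libraries alone, so its place among them is not read as a result. In 34 genes (46.6%) the treated libraries were above both untreated ones and in 3 (4.11%) below both, against 30.3% and 11.5% of all genes. With TMM-scaled CPM these counts were 23 (31.5%) and 6 (8.22%), against 21.3% and 17.9% of all genes. Without untreated replicate 2 they were 54 (74.0%) and 8 of the 73 genes, against 53.1% and 24.7% of all genes.

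Of 23 further ligands, 8 passed the filter and 4 had no count in any library. BMP6, the main ligand for hepcidin in liver, was the most abundant of them. It had 94.5 and 49.1 CPM in untreated cells against 157 and 123 in treated cells, and its log2 fold change was 0.81 (SE 0.43), or 0.43 without untreated replicate 2. AMH, the anti-Mullerian hormone, overlapped between the groups with 11.2 and 20.4 CPM against 17.2 and 23.5. BMP7, a kidney and bone ligand, had 0 and 3 counts in untreated cells against 22 and 16 in treated cells. The ratio of its pooled CPM was 13.3 (95% interval 4.23 to 67.5, exact for the counts and covering counting error only). Over untreated replicate 2 alone it was 5.91 (1.88 to 29.9). BMP7 passed the filter through its treated libraries alone, so these ratios are given as a description. GDF9, an oocyte ligand, had 20 and 231 counts in untreated cells against 9 and 15 in treated cells, with a log2 fold change of -3.56 (SE 1.42) and -0.63 without untreated replicate 2. BMP8A and BMP8B are near-identical copies, and the division of reads between them is uncertain.

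Among 16 receptors, 14 passed the filter, and in 7 of them the treated libraries were above both untreated ones, in 5 of them with TMM-scaled CPM (against 30.3% and 21.3% of all genes). Untreated replicate 2 was the lowest library in 11 of the 14, against 45.0% of all genes. TGFBR1, the type I receptor for TGF-beta, had 212 and 42.1 CPM in untreated cells against 288 and 343 in treated cells, and its log2 fold change was 1.15 (SE 0.73), or 0.43 without untreated replicate 2. ENG, a co-receptor known from endothelium, had 185 and 89.0 in untreated cells against 127 and 108 in treated cells, with overlap. ACVRL1, a type I receptor for BMP9, had 0.61 and 0.10 CPM in untreated cells against 1.11 and 1.09 in treated cells. BMPR1B, a type I receptor for BMPs, had 1.54 and 0.17 against 1.78 and 3.16. AMHR2, the receptor for AMH, was below both, with 0.41 and 0.69 against 0.17 and 0.40. GFRAL, the receptor for GDF15, had 0 counts in 3 libraries and 2 in untreated replicate 2. Its co-receptor RET had 0 and 14 counts in untreated cells against 11 and 8 in treated cells, so GDF15 was abundant in cells with almost no counts on its known receptor.

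All 8 SMAD genes passed the filter, in 5 the treated libraries were above both untreated ones (4 with TMM-scaled CPM, against 30.3% and 21.3% of all genes), and untreated replicate 2 was the lowest library in 7 (against 45.0%). The exception was SMAD9, a SMAD of the BMP branch. It had 0.74 and 1.77 CPM in untreated cells against 4.20 and 4.28 in treated cells, and its log2 fold change was 1.63 (SE 0.63), or 2.36 without untreated replicate 2. SMAD2, the most abundant, had 136 and 33.7 against 123 and 142 with overlap. SMAD6, an inhibitory SMAD, had 62.0 and 20.5 against 67.5 and 72.4, with overlap under RLE factors. Of the named SMADs, SMAD9 alone kept a log2 fold change of at least 1 with each untreated library left out, at 1.08 and 2.36.

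**Figure D4:**
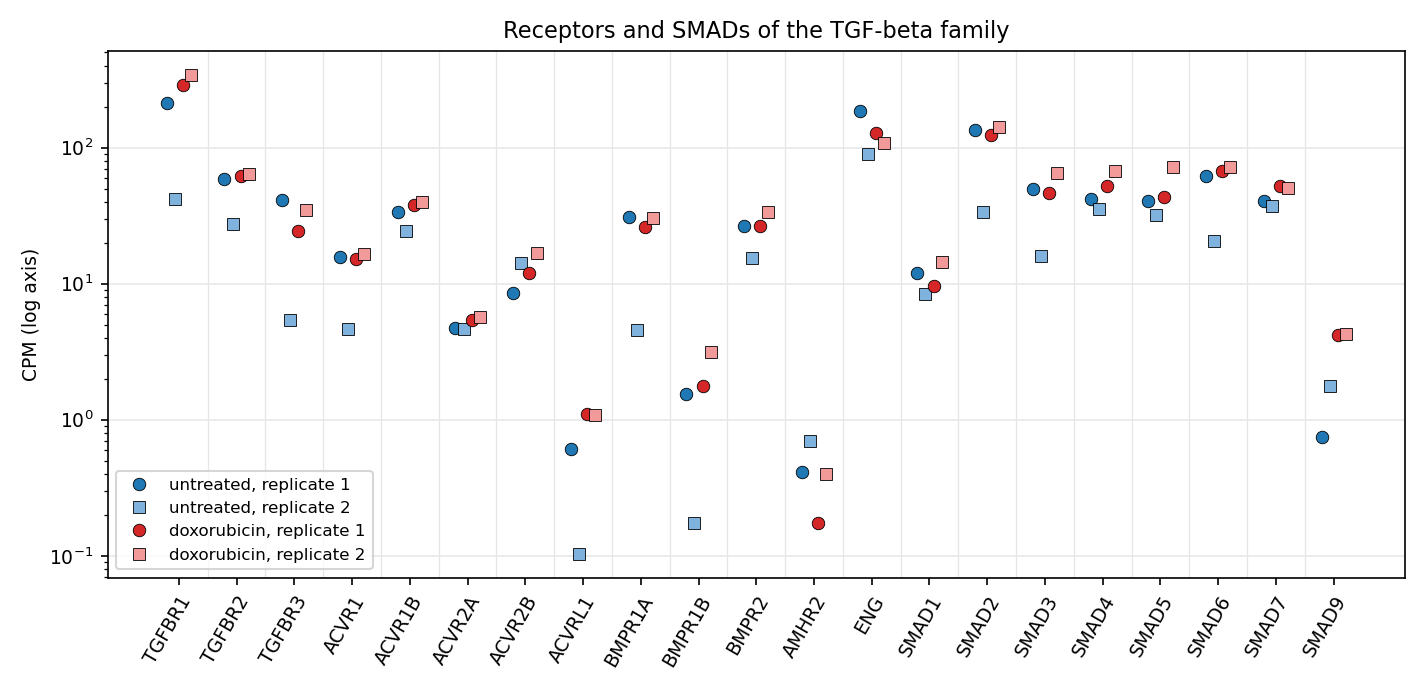
CPM (log axis) of the receptors and SMADs that passed the filter and had a count in every library, 1 point per library. In most of them the pale blue square of untreated replicate 2 is the lowest point, while in SMAD9 both untreated points lie below both doxorubicin points.

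Of 16 extracellular binding proteins and latency factors, 13 passed the filter, and in 4 the treated libraries were above both untreated ones (3 with TMM-scaled CPM), near the 30.3% and 21.3% of all genes. LTBP1 and LTBP2 encode proteins of the matrix, of which LTBP1 binds latent TGF-beta. LTBP1 had 0.99 and 0.28 CPM in untreated cells against 2.59 and 2.39 in treated cells, and its log2 fold change was 1.76 (SE 0.70), with 1.19 when untreated replicate 2 was left out and 2.97 when untreated replicate 1 was. LTBP2 had 1.10 and 1.28 against 2.97 and 2.54, with 1.06 (SE 0.55), or 1.19 without untreated replicate 2. BMPER, a modulator of BMPs, had 7.42 and 1.28 against 13.7 and 8.92. FSTL3, an activin-binding protein, was the most abundant with 560 and 486 in untreated cells against 501 and 357 in treated cells, which overlapped but lay below both untreated values with TMM-scaled CPM. FURIN, the convertase of many of the precursors, had 340 and 352 against 302 and 276, below both untreated libraries by a log2 fold change of -0.42 (SE 0.28), or -0.38 without untreated replicate 2. FST (follistatin), NOG (noggin) and CHRD (chordin), named for their role as antagonists of activins and BMPs after their values were seen, were each highest in untreated replicate 2. Of the 13 genes of this list, 6 were highest in that library, against 36.6% of all genes. In 3 of the 13 it was the lowest library, BMPER among them, and in 4 it lay inside the range, FSTL3 among them. FST had 0.66 and 11.8 CPM in untreated cells against 1.52 and 1.92 in treated cells, and its log2 fold change, negative with all libraries, was 1.22 without that library.

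The 8 intracellular inhibitors all passed the filter. In 5 the treated libraries were above both untreated ones, but in only 2 with TMM-scaled CPM, against 30.3% and 21.3% of all genes. FKBP1A, which binds type I receptors, had 246 and 298 CPM in untreated cells against 242 and 255 in treated cells, with overlap that was lost with TMM-scaled CPM, where the treated values were lower. PMEPA1 had 94.0 and 40.3 against 123 and 89.8. Of 12 target genes 10 passed, and in 5 the treated libraries were above both untreated ones (3 with TMM-scaled CPM), against 30.3% and 21.3% of all genes. JUNB, an immediate target of TGF-beta, had 213 and 298 CPM in untreated cells against 373 and 410 in treated cells, and ID3, a BMP target, had 339 and 64.1 against 369 and 266 with overlap.

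Among 12 genes of the p53 and ATF4 responses, all of which passed, the treated libraries were above both untreated ones in 6 (4 with TMM-scaled CPM), against 30.3% and 21.3% of all genes, and below both in 0, against 11.5%. The log2 fold change was positive in 6 and negative in 6, with a median of 0.10 against 0.01 for all genes. Without untreated replicate 2, which left 1 untreated library, it was positive in 11 and negative in 1. Its median was then 0.39, against 0.05 for all genes. Negative with all libraries were TP53I3 (-0.63), SESN1 (-0.21), BTG2 (-1.58), ATF3 (-1.73), DDIT3 (-0.29) and EGR1 (-2.40). Of these, TP53I3 alone stayed negative without untreated replicate 2, at -0.29. CDKN1A, the p53 target that encodes p21, had 380 and 866 CPM in untreated cells against 1003 and 880 in treated cells. As for GDF15, untreated replicate 2 was by ratio closer to the treated libraries than to untreated replicate 1, and with TMM-scaled CPM the groups overlapped. ATF4 had 467 and 309 against 655 and 656, with a log2 fold change of 0.60 (SE 0.32), or 0.35 without untreated replicate 2. ASNS, the asparagine synthetase induced by ATF4, had 2.67 and 3.08 against 6.99 and 6.49, with 1.08 (SE 0.49), or 1.20 without untreated replicate 2. TRIB3, another ATF4 target, had 179 and 53.2 against 289 and 236, with 1.03 (SE 0.60), but 0.42 without untreated replicate 2 and 2.12 without untreated replicate 1.

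**Figure D5:**
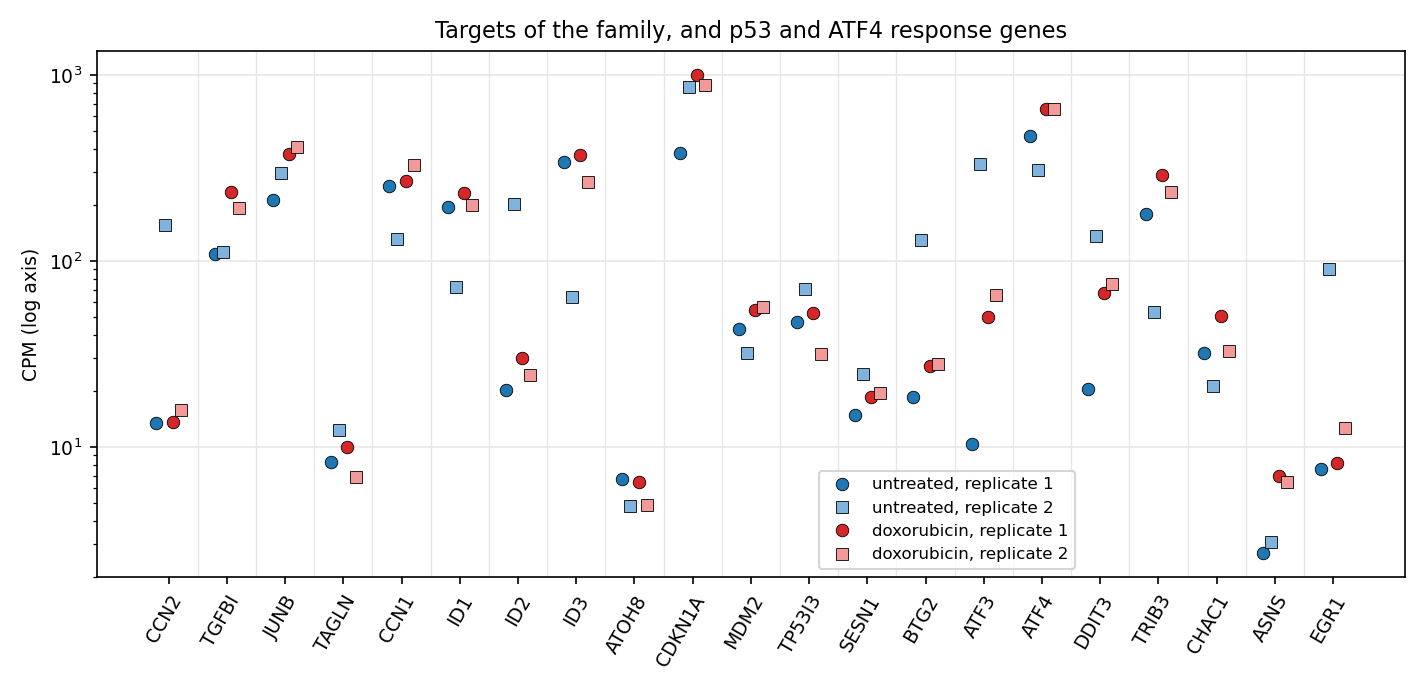
CPM (log axis) of target genes of TGF-beta and BMP signalling that passed the filter, followed by genes of the p53 and ATF4 responses, 1 point per library. The doxorubicin points of TGFBI, JUNB and ASNS lie above both untreated points, while CCN2, ID2, BTG2, ATF3 and EGR1 are highest in untreated replicate 2.

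The 5 genes with the pattern most like that of GDF15 were found by the distance of their centred log2 CPM from that of GDF15 over the 4 libraries. They were TRAF1 (distance 0.024), NFAM1 (0.097), COL6A2 (0.11), AC073264.3 (0.15) and SPP1 (0.17). All 5 were low genes, with between 3 and 71 counts in untreated libraries and between 12 and 148 in treated libraries, so their order rests on few reads. TRAF1 had 0.50 and 1.18 CPM in untreated cells against 2.19 and 2.36 in treated cells. SMAD9 held the rank of 34 by this distance among all genes tested, looked up after its values were seen. No ligand came near, the closest being TGFB1 at rank 2924.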

How the data were processed

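The authors removed low-quality reads and adapters (FastQC, Cutadapt), used HISAT2 for mapping to hg38 and HTSeq for counting. The deposited values are raw counts per gene symbol, without normalization, and their header names the basic annotation of GENCODE release 31. Tool versions and the use of strand are not given in the sources used here, so reads of overlapping genes on opposite strands cannot be told apart. Poly(A)-selected RNA was sequenced, and the series describes the 2 libraries per group as biological replicates, grouped here by title.

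CPM was computed from the library totals. Fold changes and tests came from edgeR 4.0.16 in R 4.3.3 (filterByExpr, TMM, glmQLFit without the legacy form, glmQLFTest, prior count 0.125), with the thresholds of the study (q under 0.05, log2 fold change of 1 or more in either direction), applied here to Benjamini-Hochberg adjusted p-values. DESeq2 1.42.0, the exact test, RLE factors, library size alone, no filter, the replicate block, each library left out in turn and a prior count of 2 were the alternatives. The standard errors were derived from the F statistic of the quasi-likelihood test. A fold change relative to its SE therefore ranks genes as that statistic does. The scripts were tested on simulated data. TMM-scaled CPM for the order of libraries and the unadjusted p-value were added after seeing the data. A library with 3 counts on a gene shows between 0.0827 and 0.109 CPM, and intervals cover counting error only, since no molecular identifiers are named. Positions and exon lengths came from GENCODE release 44 (GRCh38), with exons of basic transcripts merged.

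The members and lists were chosen with earlier results of these data known. Named in each pathway list were called genes, genes whose groups do not overlap and differ by 1 or more on the log2 scale, and the 2 genes with the highest mean CPM. GFRAL, RET, FST, NOG, CHRD, BMP8A, BMP8B, TGFBI, TP53I3, SESN1, BTG2, ATF3, DDIT3, EGR1 and the genes named in captions alone were named after their values were seen. A gene of the target list is not reported here.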

Additional observations from a re-analysis of the deposited data

How the results depend on the processing

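The log2 fold change of GDF15 was between 1.20 and 1.42 under 6 other settings (RLE factors, library size alone, no filter, the replicate block, a prior count of 2, DESeq2) and between 0.75 and 2.02 with 1 library left out, the highest without untreated replicate 2. The mean share of GDF15 among ligand counts was 18.5 percentage points higher in treated libraries, 18.4 when divided by gene length, and between 5.74 and 31.3 with 1 library left out. GDF11 stayed between -0.94 and -0.49 over all of them. INHBB was between -2.23 and 1.52 with 1 library left out, positive without untreated replicate 2. TGFB1, at 0.00, was -0.0534 with RLE factors, -0.0536 with DESeq2 and between -0.23 and 0.25 with 1 library left out (-0.23 without untreated replicate 1, -0.17 without doxorubicin replicate 1). The number of genes called was 0, and 20 with the replicate block, 38 with the exact test and 90 with DESeq2. With 1 library left out, fold changes were computed and calls were not run. Deviations of same-numbered libraries correlated at 0.037, which does not pair the libraries. The cause of these differences was not tested. In the pathway lists, the genes with both treated libraries above both untreated ones went from 34 to 22 with RLE factors and to between 37 and 54 with 1 library left out. Those below went from 3 to 7 with RLE factors and to 6 with TMM-scaled CPM. They were 22 without untreated replicate 1, 8 without untreated replicate 2, and 6 without doxorubicin replicate 1 or without doxorubicin replicate 2. Such counts can only stay or rise when a library is left out, since fewer libraries have to be in order. Over all genes tested, the shares above and below were 30.3% and 11.5%, and 19.1% and 20.2% with RLE factors. They were 21.3% and 17.9% with TMM-scaled CPM, and 53.1% and 24.7% without untreated replicate 2. For the other libraries left out, shares of all genes were not computed. None of the genes of the pathway lists was called, and 6 had an unadjusted p-value under 0.05. With 2 libraries per group, no outlier test within a group was possible.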
